A study of Mus musculus with 8 samples.

Results

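The miR-34 and miR-449 family is a group of miRNAs made from 3 separate loci whose 5p strands begin alike. The products followed here are mmu-miR-34a-5p, mmu-miR-34b-5p, mmu-miR-34b-3p, mmu-miR-34c-5p, mmu-miR-34c-3p, mmu-miR-449a-5p and mmu-miR-449b (written without mmu, for mouse, from here on), chosen by name, and all 7 are among the 422 miRNAs counted in the series. They were measured by small RNA sequencing of hippocampi from 4 B6 (C57BL/6J, labelled WT) and 4 BTBR (BTBR T+ Itpr3tf/J) mice, 1 library per mouse. All were adult males of 12 weeks, untreated, and no allele was engineered in either strain. BTBR is an inbred strain used as a model of idiopathic autism, and it differs from B6 across the genome, so that a strain difference cannot be assigned to a single locus. Each hippocampus was punched from brain slices as bulk tissue, in which fewer cells of a type and less RNA per cell cannot be told apart.

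A miRNA represses mRNAs that pair with its seed, bases 2 to 8 of the mature strand, and miRNAs with one seed share most of their predicted targets. miR-34a and the miR-34b/c cluster are known as transcriptional targets of p53, a regulator of growth arrest and cell death, and miR-34a has been studied in neurons as a regulator of synaptic proteins. miR-34b/c and miR-449 are abundant in multiciliated epithelia such as airway, ependyma and choroid plexus, the epithelium that secretes cerebrospinal fluid, where they act together in the formation of motile cilia.

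RefSeq's table of mature miRNAs (GRCm38.p6) matched 5 of the 7 members. It had no match for miR-34c-5p and miR-449b, so their sequences and seeds were not compared here. The sequences are shown because the seed is what joins the 3 loci, and it separates the 5p strands from the 3p strands. The capitals mark bases 2 to 8, and miR-449c-5p, a product of the miR-449 locus that was not analysed here, is added for comparison.
miR-34a-5p: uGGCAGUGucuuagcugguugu
miR-34b-5p: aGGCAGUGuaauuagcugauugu
miR-449a-5p: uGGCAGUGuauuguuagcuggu
miR-449c-5p: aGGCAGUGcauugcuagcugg
miR-34b-3p: aAUCACUAacuccacugccauc
miR-34c-3p: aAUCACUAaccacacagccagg

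The 5p strands shown carry the seed GGCAGUG, and the 3p strands of miR-34b and miR-34c share a different one, AUCACUA. Among the 367 miRNAs of the table with a mature sequence in RefSeq, GGCAGUG was the seed of miR-34a-5p, miR-34b-5p and miR-449a-5p and of no other miRNA. The members miR-34c-5p and miR-449b are not among these 367, so this count says nothing of their seeds. Compared position by position from the 5′ end, miR-34a-5p was identical to miR-449a-5p at 15 of 22 bases and to miR-34b-5p at 11 of 22. The strands miR-34b-3p and miR-34c-3p were identical at 17 of 22. The members shown are 22 or 23 bases long, and the lengths of miR-34c-5p and miR-449b were not checked. Levels of different members were compared without a correction for length, although ligation during library preparation can favour some sequences.

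In GRCm38, the hairpin of miR-34a lies on chromosome 4 (chr4:150068454-150068555, plus strand) within an exon of Gm37795, a gene model that GENCODE marks as not yet experimentally tested. The hairpins of miR-34b (chr9:51103562-51103645) and miR-34c (chr9:51103034-51103110) lie 451 bases apart on the minus strand of chromosome 9, opposite an intron of Btg4. The hairpins of miR-449b (chr13:113037419-113037498) and miR-449a (chr13:113037534-113037624) lie 35 bases apart on chromosome 13, in an intron of Cdc20b and on its strand, with that of miR-449c upstream in the same gene.

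The libraries held between 2247482 and 7904990 reads counted on miRNAs. As a check of the tissue, 4 neuronal miRNAs (miR-124-3p, miR-9-5p, miR-128-3p and miR-132-3p) summed to 50893 to 79104 CPM (counts per 1000000 counts on miRNAs, each library's total being first multiplied by its TMM scaling factor) in B6, and in BTBR mice to 59726 to 72224 CPM. B6 replicate 1 stood apart from the other libraries in miRNAs of the choroid plexus, and B6 replicate 2 stood apart from the other B6 libraries in its TMM scaling factor, which was 1.18 against 0.872 to 0.900 in the other B6 and 0.991 to 1.15 in the BTBR libraries. Values that move most with these libraries are also given without them.

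Levels, in CPM after TMM normalisation, which evens out differences in library composition, differed widely between members. miR-34c-5p was the most abundant member in 8 of 8 libraries and ranked 39 of 422 by its mean level, 2762 CPM. miR-34a-5p followed with a mean of 476 CPM and lay above miR-34b-5p (159 CPM) in 7 of 8 libraries, B6 replicate 1 being the exception. miR-34b-5p exceeded miR-34b-3p (70.8 CPM), and miR-34b-3p exceeded miR-34c-3p (35.7 CPM), in each of the 8 libraries. miR-34c-3p lay above miR-449a-5p (14.8 CPM) except in B6 replicate 4, and miR-449a-5p above miR-449b (9.12 CPM) except in B6 replicate 1, so the order of these neighbours does not hold in every mouse. The lowest count of any member was 10 reads of miR-449b in BTBR replicate 2, whose exact Poisson 95% interval, which covers counting error only, is 4.80 to 18.4 reads.

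**Figure D1:**
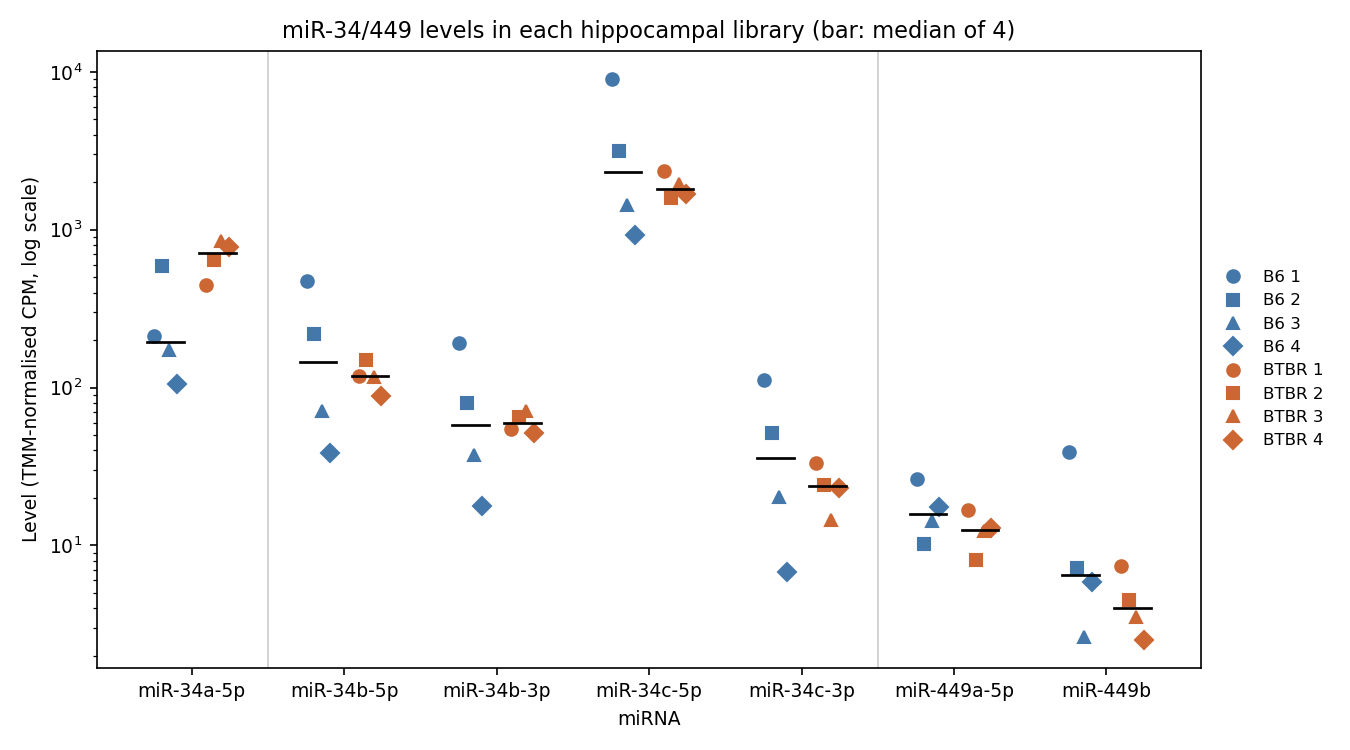
Level of each family member in TMM-normalised CPM on a log axis, 1 point per library, with blue for B6, orange for BTBR, marker shape for the replicate and a bar for the median of 4 libraries. The B6 points of miR-34c-5p spread from 920.1 to 9028 CPM while the BTBR points stay between 1586 and 2338 CPM, and miR-34a-5p is lower in B6 replicates 1, 3 and 4 than in any BTBR mouse.

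To ask whether the family differed between the strains, the 422 miRNAs were tested for BTBR against B6 with the quasi-likelihood test of edgeR and a threshold of 0.1 on the adjusted p. miR-34a-5p had a log2 fold change above 0, that is a higher mean in BTBR mice, and the other 6 members had log2 fold changes below 0. None of the 7 members passed the threshold, against 1.66% of all miRNAs, 1.18% higher and 0.474% lower in BTBR. At an unadjusted p under 0.05 there was 1 member, miR-34a-5p, in a table where 10.9% of miRNAs had such a p, 7.35% with higher and 3.55% with lower levels in BTBR. Of the other tools, edgeR's exact test called 0 members and 3.79% of all miRNAs, and limma-voom 0 members and 1.42% of all. The DESeq2 Wald test called 1 member, miR-34a-5p, and 5.65% of the 372 miRNAs to which it gave an adjusted p. The median log2 fold change of the members was −0.75, beside 0.02 over all miRNAs, of which 49.1% lay below 0. Without B6 replicate 1 the members' median was −0.02, with 4 of 7 below 0, and without B6 replicates 1 and 2 it was 0.81, with 1 of 7 below 0. For none of the members did the strains separate mouse by mouse, as they did in 6.64% of all miRNAs, of which BTBR was the higher strain in 3.32%.

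**Figure D2:**
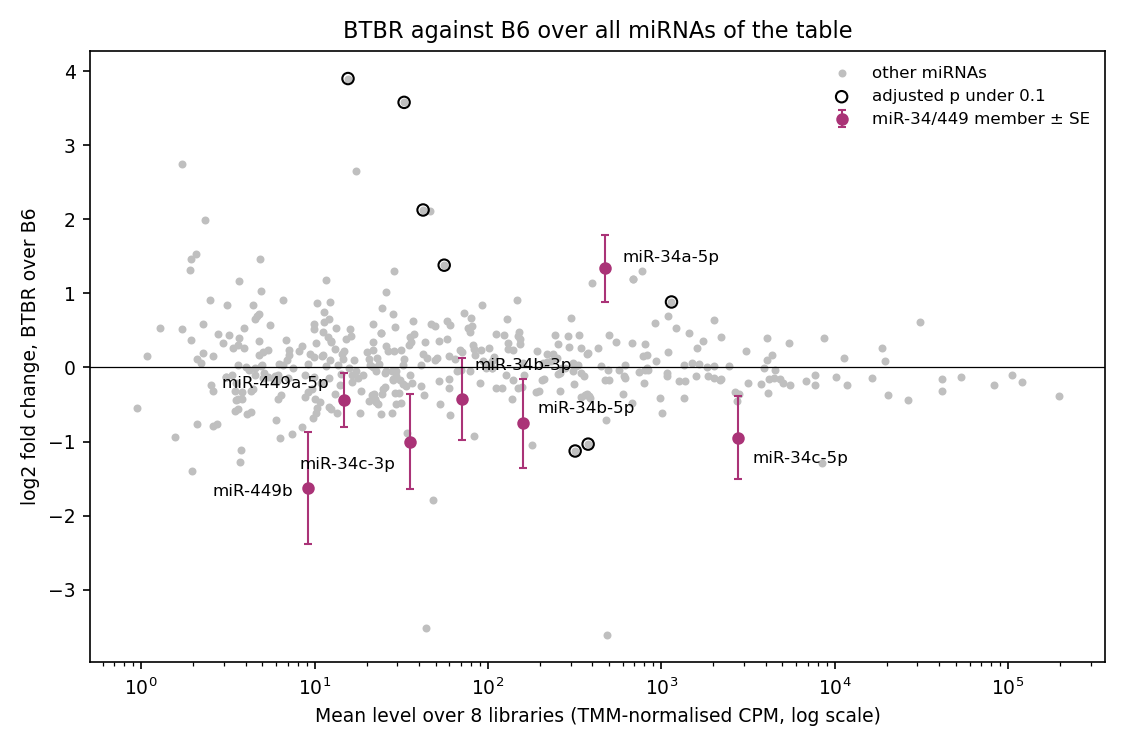
log2 fold change of BTBR over B6 against mean level for the 422 miRNAs (grey), with the 7 members in purple with their standard errors and open circles around the miRNAs with an adjusted p under 0.1. miR-34a-5p lies above 0, the other 6 members lie below 0, and no member is circled.

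miR-34a-5p, the p53-responsive product of chromosome 4, measured 213, 588, 173 and 106 CPM in B6 replicates 1 to 4 and 448, 646, 853 and 781 CPM in BTBR replicates 1 to 4. Every BTBR mouse lay above B6 replicates 1, 3 and 4, and BTBR replicate 1 lay below B6 replicate 2. Its log2 fold change was 1.34 (standard error 0.45, 95% confidence interval 0.35 to 2.33), with an adjusted p of 0.254 by the quasi-likelihood test and p = 0.0571 in a two-sided exact permutation test of the log2 levels over the 70 assignments of the 8 mice. The smallest p this test can give is 0.0286. Leaving out B6 replicate 2 gave a log2 fold change of 2.08 with an adjusted p of 0.0136 by the quasi-likelihood test. With all 8 libraries the adjusted p was 0.0747 with DESeq2, 0.107 with edgeR's exact test and 0.140 with limma-voom. It ranged from 0.00381 to 0.567 over 16 alternatives.

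The miRNAs most like miR-34a-5p across the 8 libraries came from outside the family. Likeness was taken as the root mean square difference of log2 levels after each miRNA was centred on its own mean, for which the median miRNA lay at 1.14 from miR-34a-5p. The closest were miR-486a-5p and miR-486b-5p, red blood cell miRNAs that have the same counts as each other, at 0.41, and then miR-1251-5p at 0.45. Of 5 red blood cell miRNAs, all measured and with at least 10 reads, 1 passed the threshold (miR-451a, higher in BTBR, as 1.18% of all miRNAs were). DESeq2 called 4 of them, miR-486a-5p and miR-486b-5p both included, where it called 4.03% of its miRNAs higher. edgeR's exact test called 2 and limma-voom 1, where they called 2.37% and 0.948% of all miRNAs higher. The quasi-likelihood test called 4 without B6 replicate 2, where it called 10 of the 422 miRNAs higher. It called 0 without BTBR replicate 4 or with the replicate number as a block, where it called 3 of 422 higher in each fit. Each count of 4 takes the same counts of miR-486a-5p and miR-486b-5p as 2 miRNAs. With the shared counts of these miRNAs taken once, the summed level of the list lay between 303 and 853 CPM in B6 mice, highest in replicate 2, and in BTBR mice between 531 and 1371 CPM, lowest in replicate 1. The part of red blood cells, or of the scaling factor of B6 replicate 2, in the level of miR-34a-5p was not tested. Of the strands of the miR-34b/c cluster, miR-34b-3p lay at 1.09 from miR-34a-5p, nearer than the median miRNA, and miR-34b-5p at 1.22, miR-34c-5p at 1.33 and miR-34c-3p at 1.38 lay farther away.

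Other miRNAs linked to p53 were read from the same fits. In a list of 8 miRNAs that p53 is known to induce or to help process, 6 were measured. The quasi-likelihood test, DESeq2, edgeR's exact test and limma-voom each called 0 of them. Over all miRNAs tested they called 1.66%, 5.65%, 3.79% and 1.42%. None of the 6 had an unadjusted p under 0.05, against 10.9% of all miRNAs in the quasi-likelihood test. Counts of 0 among 6 miRNAs lie near these shares and do not tell the list from the rest. The median log2 fold change of the 6 was −0.10, with 4 of 6 below 0, and it was 0.04 when libraries were scaled by their size only. miR-16-5p, a repressor of cell cycle genes, was at 7978 ± 249 CPM in the B6 and 7419 ± 1838 CPM in the BTBR mice (mean ± SD, n = 4 each). miR-143-3p, which is abundant in smooth muscle, was at 7269 ± 1827 and 6389 ± 1158 CPM. miR-192-5p, an epithelial miRNA, was at 2007 ± 342 and 2031 ± 292 CPM.

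The products of the miR-34b/c cluster spread widely among the B6 mice, and their levels overlapped between the strains. miR-34c-5p measured 9028, 3168, 1439.9 and 920.1 CPM in B6 replicates 1 to 4 and 2338, 1586, 1940.1 and 1675 CPM in BTBR replicates 1 to 4. The BTBR mice thus lay within the range of the B6 mice, with 2 B6 mice above and 2 below all of them. The highest B6 library had 9.81 times the level of the lowest, against 1.47 times in BTBR, while the median miRNA spanned 1.66-fold in B6 and 2.15-fold in BTBR. By this range miR-34c-5p stood at place 18 of 422 in B6 and at place 350 in BTBR. Without B6 replicate 1 its range in B6 was 3.44-fold, place 43, where the median miRNA spanned 1.54-fold. A wide range in B6 was not particular to the cluster. miR-449b spanned 15.0-fold, place 6, and miR-34a-5p 5.56-fold, place 35. Without B6 replicate 1 miR-34a-5p stood at place 20, and miR-449b, at 2.74-fold, at place 65.

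Its log2 fold change was −0.95 (standard error 0.56, 95% confidence interval −2.17 to 0.27, adjusted p = 0.596 by the quasi-likelihood test), and the exact permutation test gave p = 0.686. This value rests on B6 replicate 1. Leaving it out gave −0.02, leaving out B6 replicate 2 alone gave −0.98, and leaving out both gave 0.68, an alternative chosen after the data had been seen.

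miR-34b-5p, which shares the seed of miR-34a-5p, measured 470.2, 218, 71.4 and 38.4 CPM in the B6 and 118, 149, 117 and 89.0 CPM in the BTBR replicates. Its partner from the other arm of the hairpin, miR-34b-3p, measured 190.4, 79.3, 37.1 and 17.8 CPM in B6 and 54.9, 64.6, 70.9 and 51.5 CPM in BTBR mice. For both strands, B6 replicates 1 and 2 lay above every BTBR mouse and B6 replicates 3 and 4 below every one. The log2 fold changes were −0.75 (standard error 0.60) and −0.43 (standard error 0.55), with adjusted p of 0.696 and 0.800. Without B6 replicate 1 both lay above 0, at 0.05 and 0.38.

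miR-34c-3p, the rarer strand of the miR-34c hairpin, measured 111, 51.7, 20.4 and 6.74 CPM in B6 and 33.1, 24.2, 14.5 and 23.2 CPM in BTBR mice. The BTBR mice again lay inside the range of the B6 mice, which was 16.5-fold, place 5 of 422, and 7.67-fold, place 14, without B6 replicate 1. Between the strains the log2 fold change came to −1.0 (standard error 0.64), and the adjusted p to 0.617. The difference was −0.20 without B6 replicate 1 and 0.81 without both B6 replicates 1 and 2.

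**Figure D3:**
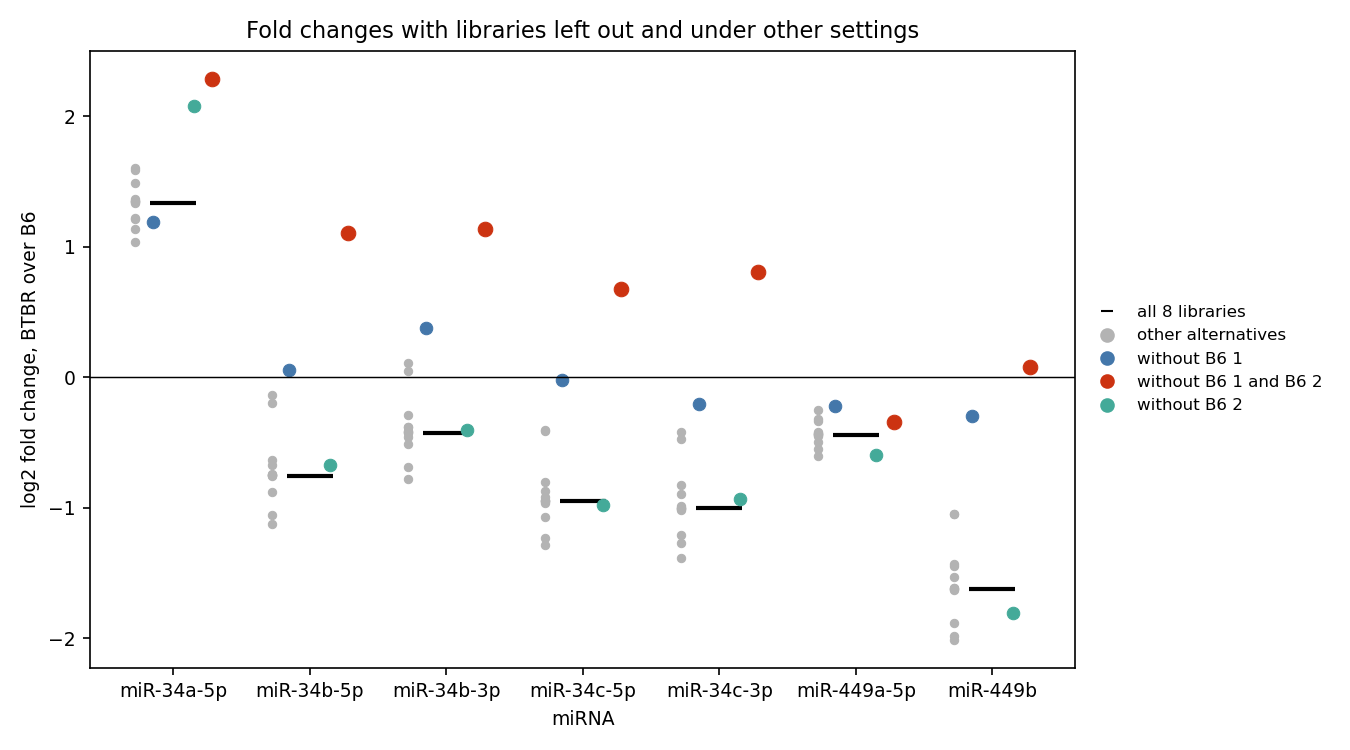
log2 fold change of BTBR over B6 for each member with all 8 libraries (black bar), without B6 replicate 1, without B6 replicate 2, without both, and under the other alternatives (grey). miR-34a-5p stays between 1.04 and 2.29, while the 4 products of the miR-34b/c cluster move from below 0 to between 0.68 and 1.14 once B6 replicates 1 and 2 are left out.

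The strands of the cluster varied together from mouse to mouse. Nearest to miR-34b-5p were miR-34b-3p, miR-34c-5p and miR-34c-3p, at root mean square differences of 0.24, 0.33 and 0.39 where the median miRNA lay at 1.09. The number of miR-34c-5p reads per miR-34b-5p read was 14.5 to 23.9 in B6 and 10.6 to 19.7 in BTBR libraries, a difference of −0.26 on the log2 scale (standard error 0.25, exact permutation p = 0.371). Reads that match both strands could be split between them by the counting, so this ratio is uncertain. The ratio of the 5p to the 3p strand was 1.92 to 2.75 in B6 and 1.65 to 2.31 in BTBR for miR-34b (difference −0.25, standard error 0.16, exact permutation p = 0.171). For miR-34c it was 61.3 to 136.5 in B6 and 65.4 to 134 in BTBR (difference −0.03, standard error 0.35, exact permutation p = 0.914). A strain difference in the choice of strand was thus not detectable for either hairpin.

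miRNAs of the choroid plexus were also high in B6 replicate 1. Of 13 choroid plexus miRNAs, 7 were measured, of which 6 had their highest level in B6 replicate 1, and the other 6 of the list were not analysed here. Their summed level was 30913, 13159, 4940 and 4282 CPM in B6 replicates 1 to 4 while the BTBR mice lay between 2893 and 7878 CPM. None of the measured markers was at 0, the lowest count being 1 read of miR-448-3p in BTBR replicate 2. The part of choroid plexus tissue in the levels of miR-34b/c was not tested.

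By the quasi-likelihood test 0 of the 7 choroid plexus miRNAs passed the threshold, 4 had an unadjusted p under 0.05 (10.9% of all miRNAs did), and their median log2 fold change was −1.30, with 6 of 7 below 0. DESeq2 called 2 of them lower, edgeR's exact test 3 and limma-voom 0, against 1.61%, 1.42% and 0.474% of the miRNAs each tool tested. Their median was −0.59 without B6 replicate 1 and 0.14 without B6 replicates 1 and 2. The quasi-likelihood test called 2 of them lower without B6 replicate 3 and 3 without B6 replicate 4. In each of these fits it called 4 of the 422 miRNAs lower. miR-204-5p, made from an intron of Trpm3 and the most abundant of them, averaged 12018 ± 10626 CPM over the B6 mice, 7035 ± 4517 CPM without B6 replicate 1, and 4898 ± 2116 CPM over the BTBR mice. miR-1298-5p and miR-1298-3p, from an intron of the serotonin receptor gene Htr2c, averaged 898 ± 1331 and 243 ± 280.3 CPM over the B6 mice, and 73.5 ± 28.5 and 117 ± 35.8 CPM over the BTBR mice. Without B6 replicate 1 the B6 means of miR-1298-5p and miR-1298-3p were 243 ± 291 and 107 ± 82.3 CPM, the second of them below the BTBR mean.

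Among all 421 other miRNAs, miR-1298-3p was the second nearest to miR-34c-5p, at 0.34, between miR-34b-5p at 0.33 and miR-34b-3p at 0.35, with the median miRNA at 1.01. The number of miR-34c-5p reads per read of miR-204-5p was 0.335, 0.259, 0.306 and 0.221 in B6 replicates 1 to 4, so that these miRNAs kept nearly the same proportion over a range of levels that was 9.81-fold for miR-34c-5p. In BTBR mice the ratio was 0.882, 0.205, 0.399 and 0.386. The difference between strains was 0.56 on the log2 scale (standard error 0.45, exact permutation p = 0.286). The difference was 0.19 without BTBR replicate 1 (exact permutation p = 0.543) and 0.89 without BTBR replicate 2 (exact permutation p = 0.0286), so that its size depends on single BTBR mice.

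**Figure D4:**
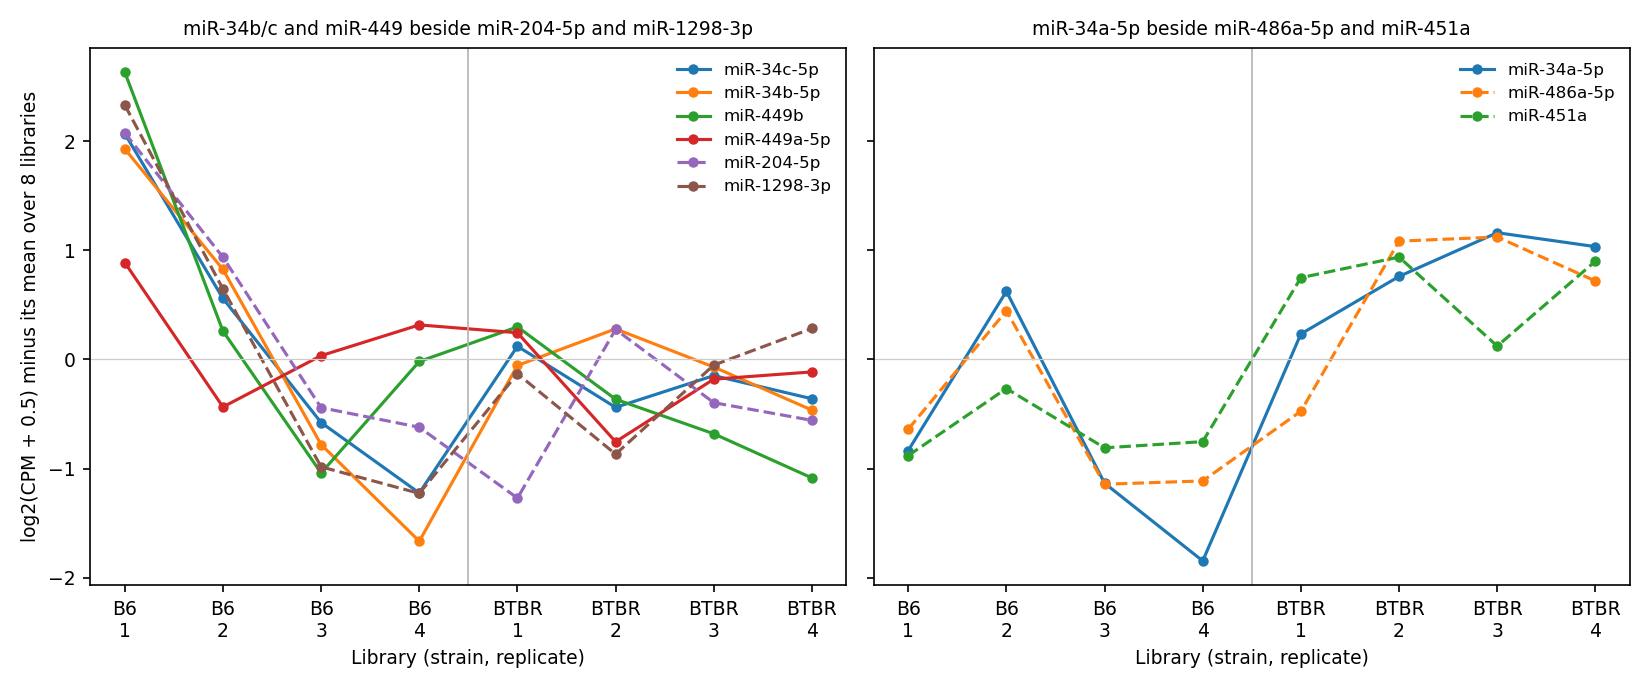
log2(CPM + 0.5) of each miRNA minus its mean over the 8 libraries, with lines joining the values of 1 miRNA only to guide the eye, solid for members and dashed for other miRNAs. On the left miR-34c-5p, miR-34b-5p and miR-449b peak in B6 replicate 1 as miR-204-5p and miR-1298-3p do, with miR-449a-5p moving less, and on the right miR-34a-5p lies above its mean in B6 replicate 2 and the BTBR mice, as does miR-486a-5p except in BTBR replicate 1.

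The products of the miR-449 locus were the rarest members by mean level, and miR-449b spread 15.0-fold among the B6 mice, or 2.74-fold without B6 replicate 1, where miR-449a-5p spread 2.58-fold and 1.72-fold. miR-449b measured 39.3, 7.19, 2.62 and 5.84 CPM in B6 and 7.40, 4.49, 3.51 and 2.53 CPM in BTBR mice, from 10 to 205 reads per library. B6 replicate 1 was far above all other mice, which overlapped between the strains. The log2 fold change of miR-449b was −1.63 (standard error 0.75, 95% confidence interval −3.27 to 0.02, adjusted p = 0.451), and the exact permutation test gave p = 0.371. It was −0.30 when B6 replicate 1 was left out and 0.08 when B6 replicate 2 was left out too. Its nearest miRNAs were miR-34c-5p at 0.60, miR-204-3p, the minor strand of the choroid plexus miRNA miR-204, at 0.70, and miR-503-5p at 0.74, with the median miRNA at 1.19. Among the neighbours of miR-449b, miR-449a-5p came at place 11 of 421, at 0.88, nearer than the median miRNA.

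miR-449a-5p measured 26.3, 10.2, 14.3 and 17.5 CPM in B6 and 16.6, 8.08, 12.3 and 12.9 CPM in BTBR mice, from 18 to 137 reads. Its range in B6 was 2.58-fold, place 103 of 422, and its log2 fold change of −0.44 (standard error 0.36, 95% confidence interval −1.23 to 0.35, adjusted p = 0.713) stayed below 0 in all 16 alternatives. The miRNAs nearest to it were miR-27b-5p, miR-22-3p and miR-378a-3p, at 0.27 to 0.28, and miR-449b came at place 325 of 421, at 0.88. miR-449a-5p had 0.668, 1.42, 5.46 and 3.0 reads per miR-449b read in B6 replicates 1 to 4 and between 1.80 and 5.10 in BTBR mice (difference 0.55 on the log2 scale, standard error 0.74, exact permutation p = 0.486). The difference was 0.031 without B6 replicate 1 and 1.04 without B6 replicate 3. Against miR-34c-5p the strains overlapped as well, with 52.5 to 343 miR-34c-5p reads per miR-449a-5p read in B6 and 130.1 to 196 in BTBR (exact permutation p = 1). Without B6 replicates 1 and 2 the log2 ratio of miR-449a-5p to miR-34c-5p differed by −1.09 between BTBR and B6 (exact permutation p = 0.0667, the smallest possible).

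The loci were also compared within libraries, where a ratio of counts needs no normalisation. Products of the miR-34b/c cluster made up 97.2%, 85.3%, 89.2% and 88.4% of the family's reads in B6 replicates 1 to 4 and 84.3%, 73.5%, 71.2% and 69.8% in BTBR replicates 1 to 4. miR-34a-5p made up 2.12%, 14.3%, 9.85% and 9.50% in B6 and 14.9%, 26.0%, 28.3% and 29.6% in BTBR mice, and the miR-449 locus at most 2.10%. The share of miR-34a-5p was thus higher in each BTBR mouse than in any B6 mouse, although B6 replicate 2 and BTBR replicate 1 lay close together. The family as a whole summed to 4268 ± 4084 CPM over the B6 mice and to 2786 ± 270.2 CPM over the BTBR mice (mean ± SD, n = 4 each). Without B6 replicate 1 the B6 sum was 2331 ± 1585 CPM (n = 3), below that of BTBR.

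There were 42.3, 5.39, 8.31 and 8.71 miR-34c-5p reads per miR-34a-5p read in B6 replicates 1 to 4, and 5.22, 2.45, 2.27 and 2.15 in BTBR replicates 1 to 4. All BTBR mice lay below all B6 mice, by a narrow margin between B6 replicate 2 and BTBR replicate 1. The ratio of miR-34a-5p to miR-34c-5p was 2.01 higher in BTBR on the log2 scale (standard error 0.72), with p = 0.0286 in the exact permutation test, the smallest it can give, and 0.129 after adjustment over the 9 ratios compared. The ratio of miR-34a-5p to miR-34b-5p, which was 0.454, 2.69, 2.43 and 2.75 in B6 and 3.78, 4.32, 7.28 and 8.77 in BTBR, differed by 1.75 (standard error 0.70, exact permutation p = 0.0286, adjusted 0.129). Neither ratio passed after adjustment.

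Without B6 replicate 1 these differences were 1.38 and 1.12, each with an exact permutation p of 0.0571. The ratio to miR-449a-5p differed by 2.01 (standard error 0.81, exact permutation p = 0.0571, adjusted 0.171), with B6 replicate 2, at 57.6, above BTBR replicate 1, at 26.9. The ratio of miR-34a-5p to a miRNA was higher in every BTBR library for 3 of the 6 other members (miR-34b-5p, miR-34b-3p and miR-34c-5p) and for 16.4% of the 421 other miRNAs of the table, and lower in every BTBR library for 0.238%. The ratio of miR-34c-5p to a miRNA was lower in every BTBR library for 2.14% and higher for 0.238% of them. Ratios of miR-34a-5p to many miRNAs outside the family thus separated the strains as well.

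**Figure D5:**
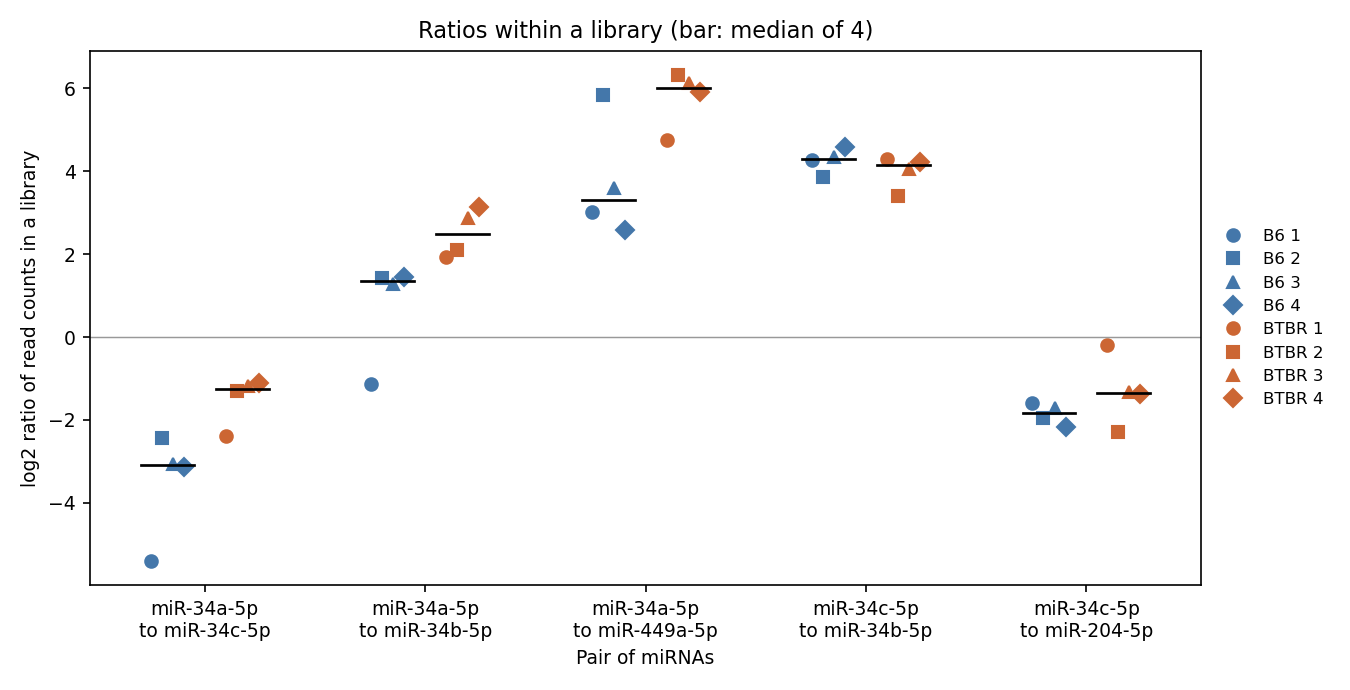
log2 ratio of the read counts of 2 miRNAs in each library, with blue for B6, orange for BTBR, marker shape for the replicate and a bar for the median of 4. For miR-34a-5p to miR-34c-5p and to miR-34b-5p every BTBR point lies above every B6 point, and the ratios of miR-34a-5p to miR-449a-5p, of miR-34c-5p to miR-34b-5p and of miR-34c-5p to miR-204-5p overlap between the strains.

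Markers of other cell types were looked up as well. They included neuronal (4 of 4 measured), endothelial (2 of 2), leukocyte (2 of 3) and oligodendrocyte (2 of 2) miRNAs. None of these passed the threshold in the quasi-likelihood test, with DESeq2, with edgeR's exact test or with limma-voom. None had an unadjusted p under 0.05 in any of the 4 tests. Over all miRNAs the tests called 1.66%, 5.65%, 3.79% and 1.42%, and 10.9% had such a p in the quasi-likelihood test. Counts of 0 in lists this short lie near these shares and do not tell the lists from the rest. The median log2 fold changes of these lists were, in the same order, 0.16, −0.15, 0.18 and −0.37. Of 5 epithelial miRNAs of the miR-200 family, 4 were measured and 2 passed, miR-200a-3p and miR-200c-3p, both higher in BTBR, as 1.18% of all miRNAs were. DESeq2 called 4 of them, edgeR's exact test 3 and limma-voom 2, where these tools called 4.03%, 2.37% and 0.948% of their miRNAs higher. They had a summed level of 19.4 to 44.1 CPM in B6 and of 117 to 192 CPM in BTBR. Their median log2 fold change was 2.39, where that of the choroid plexus miRNAs was −1.30.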

How the data were processed

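Small RNA from 8 hippocampi was sequenced (TruSeq Small RNA kit), and the authors deposited whole-number counts per miRBase miRNA, not normalised, which sRNAbench had made from Bowtie alignments to GRCm38. The labels name FastQC 0.11.2. BTBR reads were mapped to the same reference as B6 reads. Nothing was filtered here.

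Counts were fitted with edgeR 4.0.16 in R 4.3.3 (TMM, quasi-likelihood, no covariates, Benjamini-Hochberg over 422 miRNAs). Alternatives used DESeq2 1.42.0, limma 3.58.1 and edgeR's exact test. Permutation tests were two-sided and exact, on log2(CPM + 0.5) or on log2 count ratios, and 9 ratios were adjusted together. Confidence intervals use the moderated degrees of freedom of the fit. Steps were tested on simulated counts. Sequences come from RefSeq and hairpin positions from GENCODE, both GRCm38, and plots were drawn with matplotlib 3.10.9 in Python 3.11.15.

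The members, lists and tests were chosen with earlier results of these data known. Named miRNAs are the members, the 3 miRNAs nearest to miR-34a-5p, miR-34b-5p, miR-34c-5p, miR-449a-5p and miR-449b, and, of the choroid plexus and p53-linked lists, those past the threshold and the 3 most abundant. Others, of the marker lists, were named after their values were seen. No 2 libraries of 1 strain were alike within sampling noise. Each library came from a single animal, per the study's methods, and counts carry no molecular identifiers.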

Additional observations from a re-analysis of the deposited data

Results flagged for a closer look

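In 4 of 32 groups of 4 libraries tested for a single far value (a member's CPM or a log2 ratio in 1 strain), the gap to the nearest library divided by the range exceeded the 95% critical value of Dixon's test, where chance flags about 1 group in 20. miR-449b in B6 mice gave 0.876, since B6 replicate 1 stood far above the others. The log2 ratio of miR-34a-5p to miR-34c-5p in BTBR mice gave 0.849, with BTBR replicate 1 the lowest, and that of miR-34a-5p to miR-34b-5p in B6 mice gave 0.931, with B6 replicate 1 the lowest. The log2 ratio of miR-34c-5p to miR-34c-3p in BTBR mice gave 0.863, with BTBR replicate 3 the highest on 58 reads of miR-34c-3p.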

How the results depend on the processing

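The count of miRNAs past the threshold, 7 in the fit reported, was 21 with DESeq2, 16 with edgeR's exact test, 4 with library size only, 4 at a threshold of 0.05, 15 without B6 replicates 1 and 2, and 3 to 13 with each mouse left out. Among the members the count was 1 (miR-34a-5p) with DESeq2 and without B6 replicates 1 and 2, and 0 to 1 with each mouse left out, 1 only without B6 replicate 2. miR-34a-5p stayed above 0 in all 16 alternatives.

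Leaving out B6 replicates 1 and 2 turned miR-34b-5p to 1.11, miR-34b-3p to 1.14, miR-34c-5p to 0.68, miR-34c-3p to 0.81, miR-449b to 0.078 and the log2 ratio of miR-449a-5p to miR-449b to −0.47. limma-voom turned miR-34b-3p to 0.047. With each mouse left out, miR-34b-5p ran from −1.12 to 0.055 and miR-34b-3p from −0.78 to 0.38. Library size alone moved the median log2 fold change of all miRNAs from 0.02 to 0.15 and turned no member.

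The ratio of miR-34a-5p to miR-34c-5p differed by 1.38 to 2.37 with each mouse left out (exact permutation p of 0.0571 without B6 replicate 1 or any BTBR mouse, otherwise 0.0286), by 1.85 as a difference of medians (exact permutation p = 0.0571) and by 1.60 without B6 replicates 1 and 2, where the smallest exact permutation p possible is 0.0667. That to miR-34b-5p differed by 1.12 to 1.98 with each mouse left out. Its exact permutation p was 0.0571 without B6 replicate 1 or BTBR replicate 3, 0.0857 without BTBR replicate 4 and otherwise 0.0286. It differed by 1.13 as a difference of medians and by 1.14 without B6 replicates 1 and 2. That to miR-449a-5p differed by 1.62 to 2.71 with each mouse left out. Its exact permutation p was 0.0286 without B6 replicate 2 and otherwise 0.0571 to 0.143. The difference of miR-34c-5p to miR-34c-3p ran from −0.26 to 0.21. That of miR-449a-5p to miR-34c-5p ran from −0.39 to 0.51, and was 0.0056 with 0.5 reads added, 0.25 as medians and −1.09 without B6 replicates 1 and 2. That of miR-449a-5p to miR-449b ran from 0.031 to 1.04. That of miR-34c-5p to miR-204-5p lay between 0.19 and 0.89.

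With the replicate number as a block, 3 miRNAs and 0 members passed, miR-34b-3p turned to 0.11, and the ratios of miR-34a-5p to miR-34c-5p and to miR-34b-5p kept 2.01 and 1.75 with an exact permutation p of 0.125, the smallest that 16 exchanges allow. Same-numbered mice did not deviate together (correlations of −0.151 to 0.0516, 1 of 8 libraries closest to its own number). No pairing by number was thus seen, although so few pairs cannot show that there was none. Why these values moved was not tested.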
